A study of Mus musculus with 4 samples.

Results

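Klf2, Klf4 and Klf5 are 3 of the 21911 protein-coding genes of the GENCODE M21 annotation, chosen by name. Each locus was described from its promoter and from the peaks with a midpoint within 100 kb of its transcription start site (TSS), the 5' end of the gene model. Together they held 26 of the 26496 peaks in the authors' merged ALaP-seq list. ALaP-seq marks chromatin near PML bodies, nuclear structures built on the PML protein: the peroxidase APEX, joined to PML, attaches biotin to its surroundings when hydrogen peroxide is given. The 4 samples were mouse embryonic stem cells of the E14 line, all carrying the APEX-PML knock-in and all grown with serum, leukemia inhibitory factor (LIF), CHIR99021, an inhibitor of GSK3, and PD0325901, an inhibitor of MEK. Hydrogen peroxide was given to 2 of them and omitted from the other 2, the negative controls. The labels do not say whether the knock-in line is 1 clone. The list names no sample and holds no height, score or p-value, so the spread between samples, the depth and the level in the controls are unknown here, and no test was made. How far each peak stands for a place near PML bodies was not tested.

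Klf proteins are transcription factors that bind GC-rich and CACCC-like DNA through zinc fingers at their carboxy terminus. In mouse embryonic stem cells Klf2, Klf4 and Klf5 overlap in function, and together they help to hold the cells in the naive, self-renewing state. Klf4, one of the classical reprogramming factors, is a target of LIF and STAT3. Klf2 protein is destabilised by ERK signalling, which the MEK inhibitor of this medium blocks. Klf5 is also needed in the early embryo, in the inner cell mass and the trophectoderm.

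The 3 genes differed at their promoters. Klf2 and Klf5 each had a peak across the TSS, whereas the region around the Klf4 TSS held none, and a peak in the gene reached the promoter window by 3 bp. The promoter window was 1 kb on each side of the TSS, and any overlap of 1 bp or more was counted. By that rule all 3 genes had 1 promoter peak, as did 38.4% of all protein-coding genes. With the peak midpoint required inside the window, 37.9% of genes had one, Klf2 and Klf5 among them and Klf4 not. Of the 8413 genes with a promoter peak, 99 (1.18%) had, like Klf4, no midpoint inside.

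The Klf2 promoter peak was 688 bp wide (mm10, chr8:72318809-72319496) and ran from -224 bp to +463 bp of the TSS at 72319033 on the plus strand, over the 5' untranslated region and the start of the coding sequence. Of all listed peaks, 96.2% were as narrow or narrower. The Klf5 promoter peak was 388 bp wide (chr14:99298389-99298776) and ran from -302 bp to +85 bp of the TSS at 99298691, also on the plus strand. It lay over upstream sequence and the start of the 5' untranslated region, and 79.2% of peaks were as narrow or narrower. The nearest Klf4 peak was 129 bp wide (chr4:55531340-55531468), and 15.2% of peaks were as narrow or narrower. It lay in an intron of Klf4, from +998 bp to +1126 bp of the TSS at 55532466 on the minus strand.

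The parts of the Klf2 and Klf5 promoter peaks before the TSS, the same side of the Klf4 promoter, which held no peak, and the Klf4 intronic peak show what these regions consist of. They are written 5' to 3' on the strand of the gene, from the mm10 (GRCm38) genome, and capitals mark GGGCGGG, the GC box that Sp and Klf proteins can bind, and CACGTG, the E-box, on either strand.
Klf2 promoter peak, chr8:72318809-72319032: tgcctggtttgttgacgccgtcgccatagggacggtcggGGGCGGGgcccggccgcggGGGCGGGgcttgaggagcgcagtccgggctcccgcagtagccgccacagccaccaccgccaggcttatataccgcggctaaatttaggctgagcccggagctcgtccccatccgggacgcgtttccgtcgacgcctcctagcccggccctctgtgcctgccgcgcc
Klf5 promoter peak, chr14:99298391-99298690: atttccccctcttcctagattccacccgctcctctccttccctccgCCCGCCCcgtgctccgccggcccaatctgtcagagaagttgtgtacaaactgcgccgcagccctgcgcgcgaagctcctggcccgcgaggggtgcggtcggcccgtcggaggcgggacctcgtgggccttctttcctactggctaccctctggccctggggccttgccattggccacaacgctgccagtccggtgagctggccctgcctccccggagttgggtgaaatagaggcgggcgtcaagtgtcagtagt
Klf4 promoter without a peak, chr4:55532467-55532716: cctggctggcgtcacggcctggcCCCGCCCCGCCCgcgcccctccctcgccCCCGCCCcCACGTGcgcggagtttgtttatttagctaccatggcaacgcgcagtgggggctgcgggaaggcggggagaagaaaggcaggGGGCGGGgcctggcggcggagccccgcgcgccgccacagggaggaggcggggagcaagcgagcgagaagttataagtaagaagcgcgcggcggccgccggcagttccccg
Klf4 intronic peak, chr4:55531340-55531468: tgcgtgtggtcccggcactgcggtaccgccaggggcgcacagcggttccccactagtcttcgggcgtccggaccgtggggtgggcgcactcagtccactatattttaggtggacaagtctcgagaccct
The Klf4 promoter held 4 GC boxes, a pair of which overlap, and 1 E-box in its 250 bases, against 2 GC boxes in the 224 bases of Klf2 and 1 in the 300 bases of Klf5. Its GC content was 73.6%, beside 71.4% at Klf2 and 66.3% at Klf5. In promoters of the RefSeq table for GRCm38, which run from 250 bases before to 50 after the start, 25.6% held a GC box and 7.15% an E-box. Klf2 and Klf4 were matched there, and Klf5 was not.

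The CpG content around the TSS was high at Klf4. The ratio of observed to expected CpG in the 500 bp on each side of the TSS was 0.96 at Klf4, 0.923 at Klf5 and 0.713 at Klf2. Among all protein-coding genes Klf4 stood at percentile 96.3, Klf5 at 93.7 and Klf2 at 67.3. Of the 2192 genes in the top 10% by this measure, 1510 (68.9%) had a promoter peak by overlap and 1501 (68.5%) by midpoint. The other genes of this top 10% had none, and the part of CpG content in the peaks at the 3 genes was not tested.

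**Figure D1:**
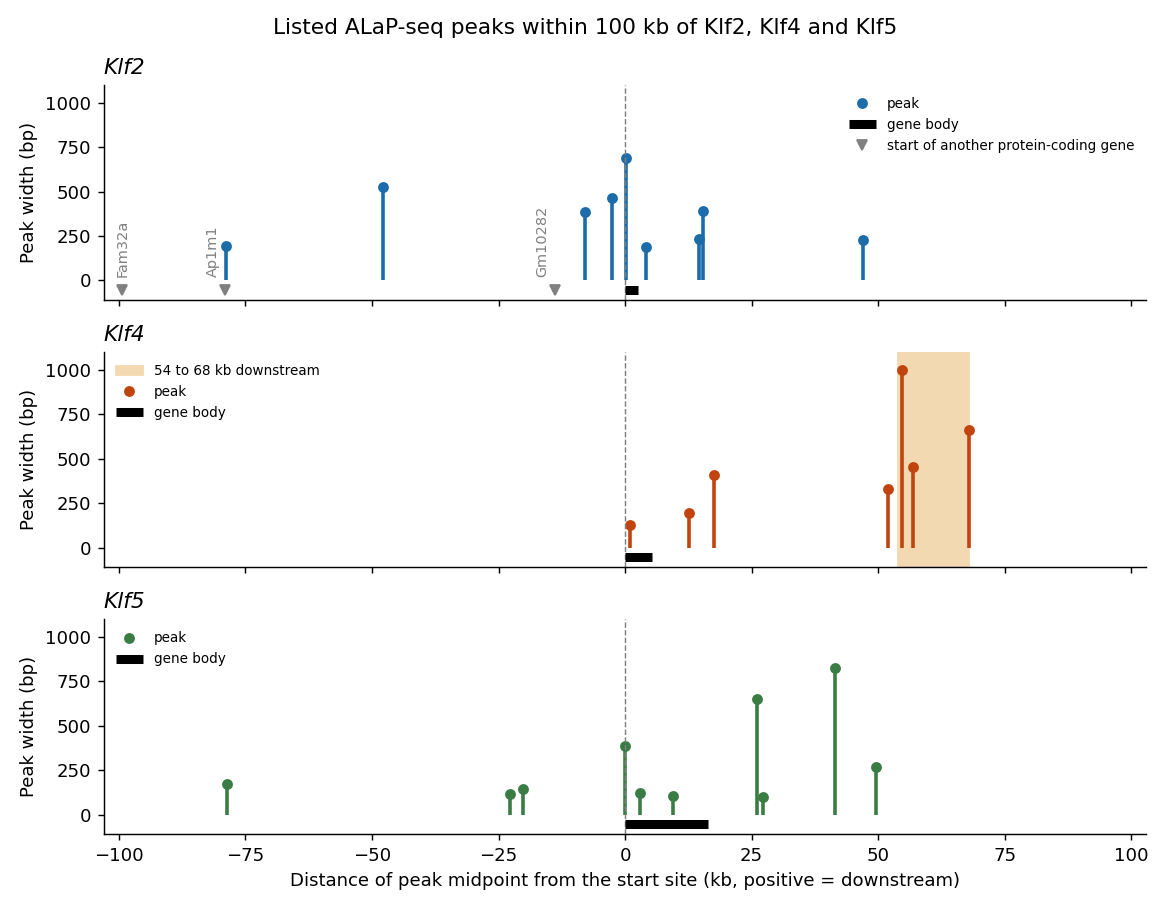
Peaks around Klf2, Klf4 and Klf5. The horizontal axis is the distance of each peak midpoint from the TSS in kb along the gene's own strand, the height of each stem is the peak's width in bp, black bars are the gene bodies, grey triangles the starts of other protein-coding genes, and the shaded band runs from 54 to 68 kb downstream. By midpoint, all 7 Klf4 peaks lie downstream of the TSS, while 4 of 9 Klf2 peaks and 4 of 10 Klf5 peaks lie upstream. Those of Klf5 include its promoter peak, which spans the TSS.

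All peaks of the Klf4 locus lay on its downstream side. Of its 7 peaks within 100 kb, 7 were downstream of the TSS and 0 upstream. Among the 5904 genes with at least 7 peaks in this distance, 2.12% had none upstream. This share is for the upstream side only and is not matched for neighbouring genes, whose promoters can hold upstream peaks. Of the 5904, 173 had, like Klf4, no other protein-coding TSS within 100 kb. The share among those is not given here. Upstream of the intronic peak no peak was listed for 1.27 Mb. Of the 26475 stretches between neighbouring peaks, 277 (1.05%) were as long or longer, 237 of them on autosomes and 17 on chromosome 4. The median stretch was 19.3 kb. This share counts stretches and not bases, and such long stretches cover more of the genome than their number shows. The stretch upstream of Klf4 held the TSSs of 3 other protein-coding genes, Actl7a, Actl7b and Gm26657. It also held those of 4 long intergenic RNA genes, Gm12511, Gm12506, Gm12519 and 2310081O03Rik. The nearest of these to Klf4, Gm12511, was thus without a peak.

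Beyond the intronic peak, Klf4 had 2 peaks at 12.6 and 17.5 kb downstream and then, after 34.4 kb without a midpoint, a group of 4. The first pair was 197 and 411 bp wide. The group lay at 51.9, 54.8, 56.9 and 68.05 kb, and its peaks were 328, 997, 453 and 659 bp wide. The peak at 54.8 kb was the widest of the 26 around the 3 genes, and 99.1% of all listed peaks were as narrow or narrower. Those at 68.05 and 56.9 kb stood at 95.5% and 85.7% by the same measure. All 4 lay outside protein-coding genes, and the one at 68.05 kb lay within the long intergenic RNA gene Gm12510, 1.4 kb from its start and outside its exons. No other protein-coding TSS was within 100 kb of Klf4.

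Enhancers of Klf4 used in embryonic stem cells are known to lie 54 to 68 kb downstream of it. That range is background knowledge, and their exact coordinates were not used here. Measured from the TSS, it held the midpoints of 2 peaks, those at 54.8 and 56.9 kb. The third wide peak spanned the far end, from +67719 to +68377 bp, with its midpoint 48 bp outside. By overlap of at least 1 bp the range therefore held 3 peaks. The peak at 51.9 kb ended at +52087 bp, short of the near end. Over all protein-coding genes, 6.06% had at least 2 midpoints in this range downstream of their own TSS, and 2.07% had at least 3 overlapping peaks. These shares are not matched for neighbouring genes, whose promoters can hold peaks in the range, and Klf4 has no such neighbour. The same range upstream of Klf4 held 0 peaks, and the ranges on both sides of Klf2 and Klf5 held 0. Measured from the 3' end of the gene in place of the TSS, the Klf4 range held the midpoint of 1 peak.

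The 3 peaks that overlap this range, and the peak at 17.5 kb, are shown because they hold most of the listed width of the Klf4 locus. Each line gives the central 300 bases of a peak on the minus strand, the strand of Klf4. Capitals mark CTTTGT, a word of SOX factors, and GGGNGTGG, a word of Klf factors, on either strand.
Klf4 +54.8 kb, chr4:55477541-55477840: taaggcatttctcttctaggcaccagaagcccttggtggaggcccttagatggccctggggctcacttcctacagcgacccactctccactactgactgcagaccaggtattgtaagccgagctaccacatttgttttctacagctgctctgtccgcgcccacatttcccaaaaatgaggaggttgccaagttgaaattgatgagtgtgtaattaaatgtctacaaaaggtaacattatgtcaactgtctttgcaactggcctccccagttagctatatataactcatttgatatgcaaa
Klf4 +56.9 kb, chr4:55475449-55475748: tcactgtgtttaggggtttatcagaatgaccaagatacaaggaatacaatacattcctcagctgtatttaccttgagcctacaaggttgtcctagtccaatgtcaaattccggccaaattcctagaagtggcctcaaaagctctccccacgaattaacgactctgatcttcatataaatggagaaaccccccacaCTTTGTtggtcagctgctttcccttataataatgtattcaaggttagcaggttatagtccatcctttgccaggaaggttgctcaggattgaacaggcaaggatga
Klf4 +68.05 kb, chr4:55464269-55464568: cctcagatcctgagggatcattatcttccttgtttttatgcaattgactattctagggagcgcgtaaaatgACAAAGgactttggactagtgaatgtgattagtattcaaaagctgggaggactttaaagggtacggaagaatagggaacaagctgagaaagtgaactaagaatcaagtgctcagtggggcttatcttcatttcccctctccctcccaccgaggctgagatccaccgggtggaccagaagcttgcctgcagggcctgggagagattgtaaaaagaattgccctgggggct
Klf4 +17.5 kb, chr4:55514836-55515135: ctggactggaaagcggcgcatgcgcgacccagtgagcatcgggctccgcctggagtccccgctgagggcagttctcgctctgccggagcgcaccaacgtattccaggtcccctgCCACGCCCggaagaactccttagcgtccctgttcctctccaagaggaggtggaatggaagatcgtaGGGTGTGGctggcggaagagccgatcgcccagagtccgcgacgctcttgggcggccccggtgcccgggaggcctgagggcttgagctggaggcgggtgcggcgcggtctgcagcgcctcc
The central 300 bases of the peak at 54.8 kb held none of the 11 words searched. The rest of this peak, 997 bp wide in all, is not described by that search. The last printed bases match the start of the octamer word ATGCNAAT, and the base beyond the edge was not searched. The central bases of the peaks at 56.9 and 68.05 kb held CTTTGT once each. Among the printed peaks, the one at 17.5 kb was of another composition. Its 300 bases were 68.3% GC with 29 CpG and held the Klf word in 2 places. The other printed stretches were 46.0%, 42.7% and 47.3% GC with 4, 3 and 5 CpG. High GC was not particular to it at this locus. Over their whole width, the peak at 51.9 kb, not printed here, was 65.2% GC and the intronic peak 64.3%.

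Klf2 lay in a compact group of peaks. Its promoter peak was flanked by peaks 2.68 and 7.88 kb upstream, 464 and 386 bp wide, and by peaks 4.06, 14.5 and 15.5 kb downstream, 190, 232 and 388 bp wide. With gaps of up to 12500 bp joined, these 6 peaks formed a cluster of 23.7 kb and 2348 bp of summed width. Of the 15249 clusters of the list, single peaks included, 2.94% had at least 6 peaks and 1.59% at least this width. The other 3 peaks of the locus were farther away. One, 196 bp wide and 78.9 kb upstream, lay at the TSS of Ap1m1, which encodes an adaptor subunit of clathrin coats. One of 524 bp lay 47.9 kb upstream, outside genes, and one of 225 bp lay 47.1 kb downstream within Eps15l1 and outside its exons. Fam32a and Gm10282, the other protein-coding genes that start within 100 kb, had no promoter peak. The peak 7.88 kb upstream of Klf2 was nearer to the TSS of Gm10282, at -5889 bp from it, than to that of Klf2.

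The peak 2.68 kb upstream is shown as the widest Klf2 peak outside the promoter among those nearest to Klf2, by its central 300 bases on the plus strand, with CTTTGT in capitals on either strand.
Klf2 -2.68 kb, chr8:72316209-72316508: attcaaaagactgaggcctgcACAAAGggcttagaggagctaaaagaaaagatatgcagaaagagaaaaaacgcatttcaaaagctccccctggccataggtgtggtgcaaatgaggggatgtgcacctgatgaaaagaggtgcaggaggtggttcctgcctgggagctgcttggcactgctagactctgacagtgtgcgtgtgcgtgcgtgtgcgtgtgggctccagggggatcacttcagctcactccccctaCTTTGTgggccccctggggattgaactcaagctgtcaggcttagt
It held CTTTGT in 2 places. The Klf word was found in 2 of the 9 Klf2 windows, those of the peaks 4.06 and 15.5 kb downstream.

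Klf5 had the most peaks of the 3 genes and the narrowest. Of its 10 peaks, 4 were at least as wide as the list median of 223 bp, against 7 of 9 at Klf2 and 5 of 7 at Klf4. The median width was 156.5 bp at Klf5, 386 bp at Klf2 and 411 bp at Klf4, beside quartiles of 151 and 354 bp over the list. Within the gene were peaks of 120 bp at 2.99 kb, in coding sequence, and of 108 bp at 9.52 kb, in an intron. Upstream were peaks of 142 and 116 bp at 20.1 and 22.7 kb, and one of 171 bp at 78.6 kb within Pibf1, outside its exons. The wide ones lay beyond the 3' end of the gene, which is 16.3 kb long. They were 652 bp wide at 26.1 kb and 826 bp wide at 41.4 kb, and 95.4% and 98.2% of listed peaks were as narrow or narrower. A peak of 97 bp at 27.2 kb and one of 266 bp at 49.7 kb were the others on that side. No other protein-coding TSS lay within 100 kb of Klf5, and the next peaks outward were 191 kb upstream and 212 kb downstream.

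The widest distal Klf5 peaks and the one with the Klf word in 2 places are shown on the plus strand, by their central 300 bases or whole where narrower. Capitals mark CTTTGT and GGGNGTGG on either strand, as well as ATCAAAG, a word of TCF/LEF factors.
Klf5 +26.1 kb, chr14:99324642-99324941: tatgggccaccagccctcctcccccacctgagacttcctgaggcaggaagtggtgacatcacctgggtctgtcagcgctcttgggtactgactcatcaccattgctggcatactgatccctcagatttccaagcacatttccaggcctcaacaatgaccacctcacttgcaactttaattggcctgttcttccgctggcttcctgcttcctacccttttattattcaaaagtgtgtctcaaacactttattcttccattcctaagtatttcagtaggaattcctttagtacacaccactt
Klf5 +41.4 kb, chr14:99339928-99340227: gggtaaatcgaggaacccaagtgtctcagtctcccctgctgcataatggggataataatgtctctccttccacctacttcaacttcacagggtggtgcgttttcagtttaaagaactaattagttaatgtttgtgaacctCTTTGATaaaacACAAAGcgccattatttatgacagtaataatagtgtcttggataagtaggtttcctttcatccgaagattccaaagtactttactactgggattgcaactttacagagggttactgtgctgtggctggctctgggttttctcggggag
Klf5 +49.7 kb, chr14:99348222-99348487: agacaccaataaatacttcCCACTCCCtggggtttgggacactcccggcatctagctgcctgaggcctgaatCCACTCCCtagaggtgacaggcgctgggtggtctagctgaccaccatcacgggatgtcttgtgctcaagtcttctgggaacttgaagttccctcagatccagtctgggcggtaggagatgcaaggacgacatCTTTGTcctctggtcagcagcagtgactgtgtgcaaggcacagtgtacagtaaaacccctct
The peak at 26.1 kb held none of the words in its centre. In the peak at 41.4 kb ATCAAAG and CTTTGT lay close together, starting at bases 141 and 153 of the printed stretch. TCF/LEF factors act at the end of the WNT pathway, which the GSK3 inhibitor of the medium activates.

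**Figure D2:**
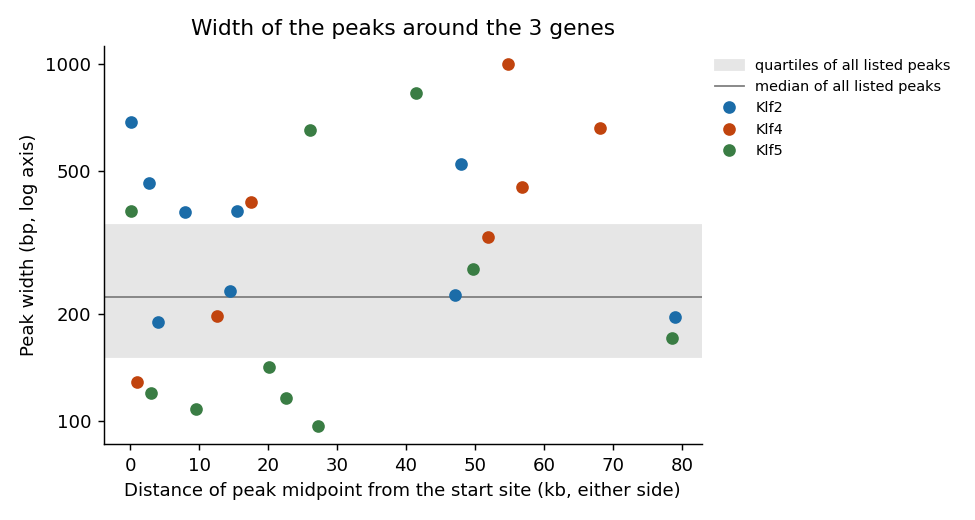
Width of the 26 peaks against their distance from the TSS. The horizontal axis is the distance of the midpoint in kb on either side, the vertical axis the width in bp on a log scale, the grey band the quartiles (151 and 354 bp) and the line the median (223 bp) of all listed peaks. At Klf4 and Klf5 the widest peaks, of 997 and 826 bp, lie away from the TSS, and at Klf2 the widest, of 688 bp, lies on it.

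Where the widest peak lay differed between the loci. At Klf2 it was the promoter peak. At Klf4 and Klf5 it lay 54.8 and 41.4 kb downstream, and the promoter window held a peak of 129 or 388 bp. The 7 Klf4 peaks summed to 3174 bp, the 9 of Klf2 to 3293 bp and the 10 of Klf5 to 2886 bp. The Klf4 group from 51.8 to 68.4 kb downstream, a cluster of 16.6 kb by the joining rule above, held 2437 bp of this. At least as much summed width was found in 1.44% of clusters, and at least 4 peaks in 7.69%. At Klf5 the largest cluster had 3 peaks, those at the promoter and in the gene, and 14.3% of clusters had as many.

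The number of peaks around the 3 genes was above the median gene but not extreme. It was 9 at Klf2, 7 at Klf4 and 10 at Klf5, where the median over protein-coding genes was 3 with quartiles of 1 and 7. At least as many were found around 18.5%, 26.9% and 15.5% of genes. Klf4 and Klf5 have no neighbouring protein-coding TSS within 100 kb whose promoter could add to the count. Among the 2829 genes with no other protein-coding TSS within 100 kb, the median was 1 peak, 6.12% had at least 7 and 2.55% at least 10. Among the 11316 genes with at most 3 such neighbours, as Klf2 has, the median was 2 and 6.22% had at least 9. The reads were mapped to a repeat-masked genome. Unmasked sequence made up 131 kb of the 200 kb around Klf2, 143 kb around Klf4 and 135 kb around Klf5, with a median of 138 kb over genes.

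**Figure D3:**
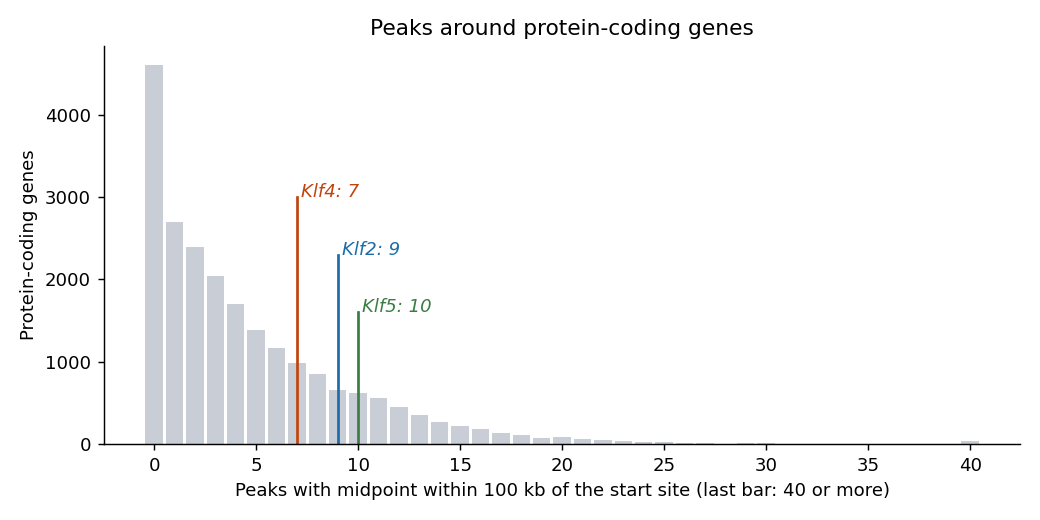
Peaks around protein-coding genes. The horizontal axis is the number of peaks with a midpoint within 100 kb of the TSS, with 40 or more in the last bar, the vertical axis the number of genes, and coloured lines mark Klf4 (7), Klf2 (9) and Klf5 (10). The 3 genes lie to the right of the median of 3 and short of the tail of the distribution.

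The Klf word was found in these peaks at a share near that of the list, and all the words rest on few windows. In windows of 300 bp centred on the 26 midpoints, GGGNGTGG was found in 5 (19.2%), against 21.9% of all listed peaks. CTTTGT was found in 9 (34.6%), against 31.8% of peaks outside promoters and 12.3% of promoter peaks. The GC box was found in 3 (11.5%), against 12.6% outside promoters and 47.5% at promoters. The GC boxes printed above for the Klf2 promoter peak lie outside its central 300 bp and are not in this count. ATCAAAG was in 3, the octamer ATGCNAAT, bound by Oct4, in 2, the E-box in 2 and AAGGTCA, bound by ESRRB, in 1. Over all peaks these 4 were found in 5.02%, 6.53%, 6.83% and 9.71% of windows. Outside promoters the shares were 6.55%, 8.66%, 5.40% and 12.7%, and at promoters 1.83%, 2.09%, 9.81% and 3.49%. The OCT-SOX composite, the STAT word TTCCNGGAA, the TFCP2L1 word and the CTCF word were in 0 of the 26, and in 0.487%, 1.40%, 4.90% and 4.48% of all windows. The OCT-SOX composite contains most of the octamer. With 3 counts taken as the upper limit where 0 were found, 26 windows would allow a share of up to 11.5%. That limit treats the windows as independent, which peaks of 3 chosen loci need not be.

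**Figure D4:**
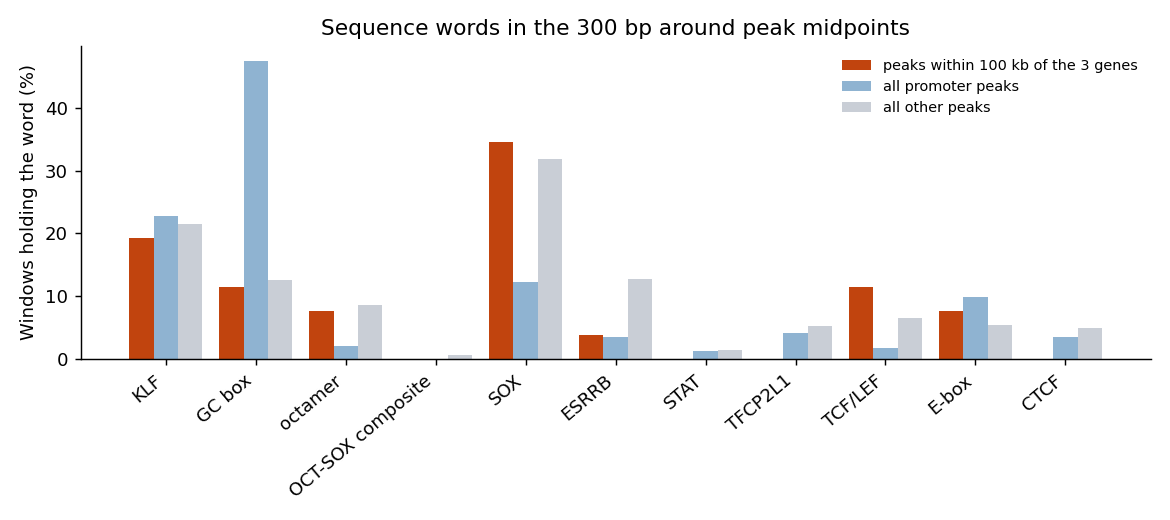
Share of 300 bp windows around peak midpoints that hold each of the 11 words on either strand. Red bars are the 26 peaks within 100 kb of Klf2, Klf4 or Klf5, blue bars all promoter peaks and grey bars all other peaks. The red bar is 19.2% for the Klf word, beside 22.8% and 21.5%, and 34.6% for the SOX word, beside 12.3% and 31.8%.

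Within the Klf and Sp families, which share the zinc fingers, Klf4 was the one member whose promoter peak had no midpoint in the window. Of the 26 genes, 17 had a promoter peak by overlap and 16 by midpoint, beside 38.4% and 37.9% of all genes. Of the 14 other Klf genes 10 had one, the widest at Klf12 (1028 bp), Klf3 (594 bp) and Klf6 (552 bp). Klf1, a factor of red blood cells, Klf8 on chromosome X, Klf14 and Klf17 had none. Of the 9 Sp genes 4 had one, Sp1 (959 bp), Sp3, Sp4 and Sp5, and Sp2, Sp6, Sp7, Sp8 and Sp9 had none. With a window of 2 kb Klf1 and Sp8 also had one, and with every transcript start Sp2 and Sp8, so that 19 genes had one in either setting. The family median was 8.5 peaks within 100 kb, with a range of 1 at Klf14 to 19 at Klf9. The 7, 9 and 10 of the 3 genes lay inside that range. Without the 3 genes the median was 8, and over the 14 other Klf genes it was 6.5. None of these values is matched for the number of neighbouring TSSs. Klf3, Klf13, Klf15 and Klf16 had 11, 10, 10 and 10. Sp3 had 7 of 7 peaks upstream by midpoint, its promoter peak among them, and 1 other protein-coding TSS within 100 kb. Like Klf4, Sp9 and Klf14 had 0 peaks upstream, with 4 and 1 downstream.

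In the pluripotency network the 3 genes held fewer peaks than Pou5f1, Sox2 and Nanog. Those had 21, 12 and 27 within 100 kb and promoter peaks up to 671, 888 and 737 bp wide. The other protein-coding TSSs in that distance numbered 9 at Pou5f1, 0 at Sox2 and 3 at Nanog, against 3 at Klf2 and 0 at Klf4 and Klf5, and their part in the counts was not tested. Tbx3, a T-box factor of the naive state, had 23 and Sall4 16. Tfcp2l1 with 7, Gbx2 and Prdm14 with 9 each and Zfp42 with 5 were nearer to the Klf genes, and Esrrb with 3 and Nr5a2 with 4 were below them. Of the 20 genes of this list 15 had a promoter peak, beside 38.4% of all genes, and their median was 8 peaks. They were picked with earlier results of these data known. Among the genes of LIF signalling, Stat3, Il6st and Socs3 had a promoter peak and Lifr and Jak1 did not. Of the WNT side, Gsk3b and Tcf7l1 had one and Ctnnb1 did not. The 5 genes of the list without a promoter peak were Ctnnb1, Esrrb, Jak1, Lifr and Nr5a2. The list of peaks holds no expression value, so the labelled cell type was not checked against marker levels.

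**Figure D5:**
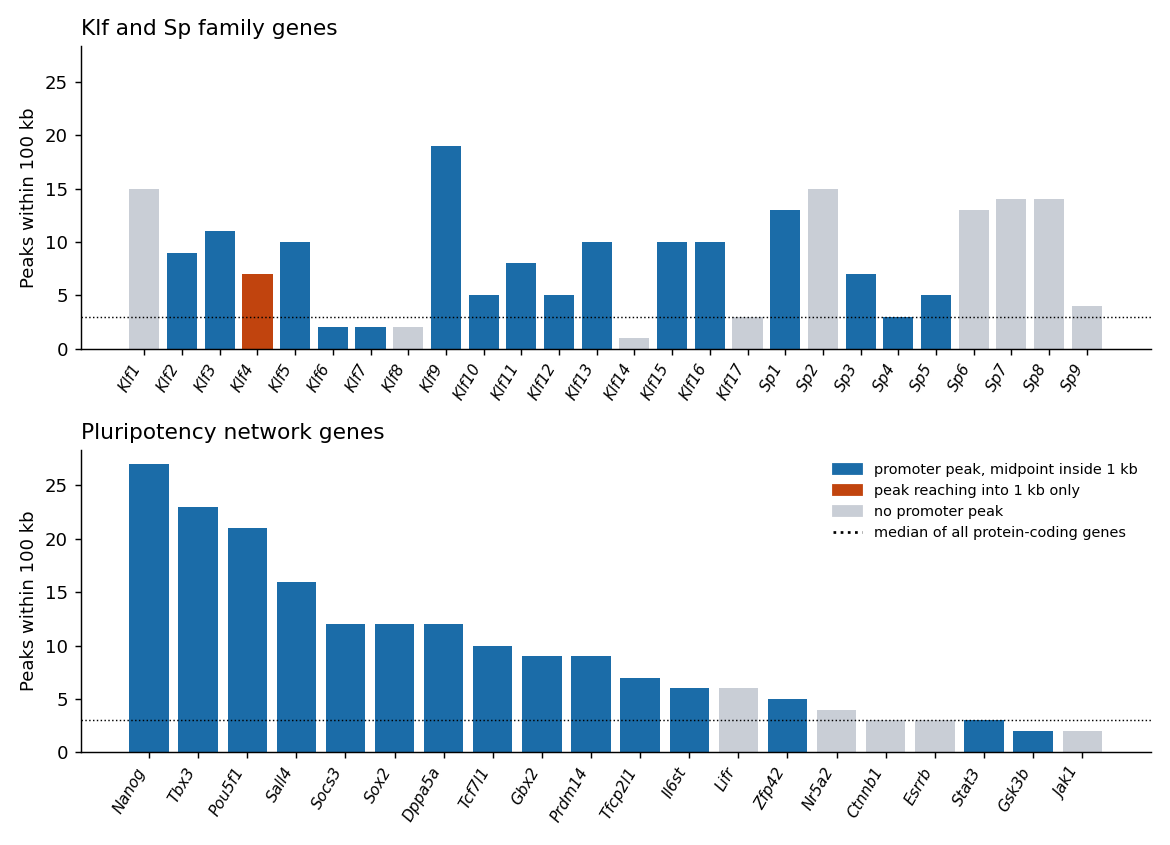
Peaks within 100 kb of the 26 Klf and Sp genes (top) and of the 20 network genes (bottom). Bar height is the number of peaks, blue a promoter peak with its midpoint within 1 kb of the TSS, red a peak that only reaches into that window, grey no promoter peak, and the dotted line the median of 3 over all protein-coding genes. Klf4 is the red bar, and Klf2, Klf4 and Klf5 at 9, 7 and 10 lie below Nanog, Tbx3 and Pou5f1 at 27, 23 and 21.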

How the data were processed

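The deposited file is the authors' peak list, with chromosome, start and end and no other column; by its name the replicates are merged. The authors, per the submitters' processing notes and design text, used Trimmomatic for trimming and Bowtie2 2.3.5.1 for mapping to mm10 with repeats masked, then took out blacklisted and greylisted regions. How peaks were called and merged, and whether controls entered, is not given in the sources used here. Starts, which count from 0, were raised by 1.

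The list was joined to GENCODE M21 and to GRCm38, the assembly mm10 names; no peak or gene ran past a chromosome end. Where a symbol had more than 1 protein-coding model the first was kept, which left out 27. Distances run from the TSS to the peak midpoint. Counting, joining and the word search were tested on simulated data. Python 3.11.15 with numpy 2.4.6, pandas 2.3.3 and scipy 1.17.1 was used.

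The genes named are the 3 genes, the Klf and Sp families, a list of 20 network genes, genes starting within 100 kb and the next genes by peak count. Genes in the stretch upstream of Klf4, and those overlapped by a peak, were named after their values were seen. The members and lists were chosen with earlier results of these data known.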

Additional observations from a re-analysis of the deposited data

How the results depend on the processing

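The list carries no value per sample, so leaving out a sample was not possible. No paired analysis was possible because the list names no sample. Of 68 recomputed values, 37 stayed near the reported one and 31 moved. The promoter peaks of Klf2 and Klf5 were found in all 5 settings. That of Klf4 was lost (0) with a window of 500 bp, by midpoint and with wider peaks only. With wider peaks only, Klf5 had 4 peaks within 100 kb. The Klf4 range held 1 peak measured from the 3' end and 4 when widened by 5 kb at each end. The share of genes with at least as many peaks, in the order Klf2, Klf4 and Klf5, was 7.53%, 37.5% and 5.27% within 50 kb, 25.2%, 39.0% and 28.0% within 200 kb, 9.36%, 18.5% and 25.9% with wider peaks, 6.22%, 6.12% and 2.55% among genes with no more neighbours, 14.8%, 23.3% and 11.6% with peaks under 500 bp apart joined and, chosen after seeing the data, 15.5%, 25.7% and 13.5% per unmasked base. The share of genes with a promoter peak was 36.1% at 500 bp, 40.3% at 2 kb, 42.4% with every transcript start and 24.7% with wider peaks. Searched in the listed peaks themselves, the Klf word was in 6 of the 26, and no share over all peaks is given for that setting. In place of the Klf word, GGGCGGG was in 3 windows and CACCC in 15 (57.7%), against 65.2% of all windows for CACCC. With gaps of 20 kb, also chosen later, the Klf5 cluster with the most peaks had 9. Settings that change a window, a word or the peaks used change these counts by construction. Without heights or depth, a region outside the list cannot be told from one under the authors' threshold.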

Other observations

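Some other Klf and Sp genes without close neighbours held more peaks than the 3 genes. Klf9 had 19 peaks within 100 kb, 15 of them upstream, with no other protein-coding TSS in that distance. Sp8, also without such a neighbour, had 14 peaks, and a promoter peak only with the wider window or with every transcript start. Among genes with no other protein-coding TSS within 100 kb, those next to Klf4 in the order by peak count, all with 7, were Hs3st3b1, Igf2bp2, Irf2bp2, Lef1, Max and Mettl4. Those next to Klf5, all with 10, included Hunk, Itga6, Kif13b, Retreg1 and Rtl1. For Klf2, among genes with at most 3 such neighbours, they were Kcng3, Kctd15, Kdm5b, Kmt2e, Kmt5b and Krcc1, all with 9. Ties were taken in alphabetical order, so these genes share a count and no more was measured of their likeness.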
